A study of Mus musculus with 6 samples.

Results

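Cdkn1a and 9 other target genes of the transcription factor p53 were described in mouse thymocytes with and without Ets1. The 10 genes are Cdkn1a, Mdm2, Ccng1, Trp53inp1, Pmaip1, Zmat3, Phlda3, Sesn2, Aen and Perp, out of 22180 genes measured by a probe set that names 1 gene alone. They were picked by name from the p53 pathway with the difference between the genotypes already known, and each had a single probe set. The levels and differences of the 10 genes are therefore a description, without a test, and support nothing by themselves.

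RNA was hybridised to 6 single-channel Affymetrix arrays, 3 labelled Ets1-/- and 3 labelled wild type (WT). All were C57BL/6 mice aged 5 to 6 weeks, and the sorted population was CD4+ CD8+ (double-positive) thymocytes, a stage of T-cell development at which both coreceptors are present. In both genotypes thymocytes were crosslinked with formaldehyde for 10 min, taken on beads against CD8 and then on beads against CD4, and lysed in TRIzol without any other treatment. The biological replicates are cohorts of litter mates, per the labels. What the p-values below measure is the spread among these cohorts. The sources used here do not give the number of animals behind an array or the deleted part of Ets1.

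As background, p53 is a transcription factor that is stabilised after DNA damage and other stress. It switches on genes that stop the cell cycle, repair DNA or kill the cell, and it also switches on its own inhibitor Mdm2, which marks it for destruction. Double-positive thymocytes are known for dying through p53 after irradiation. Cdkn1a encodes p21, an inhibitor of cyclin-dependent kinases through which p53 halts the cycle and, indirectly, represses many cell cycle genes. Other factors can act on Cdkn1a without p53.

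The sites through which p53 can act are shown first, because Cdkn1a and Ccng1 carry such a site near a transcription start. RefSeq windows from 250 bases before to 50 bases after a start (GRCm38.p6) were found for 6 of the 10 genes, in 8 windows. They were Cdkn1a and Aen, each with a pair of starts, and Mdm2, Ccng1, Phlda3 and Sesn2. The search used the p53 half-site consensus of 10 bases, which reads the same on both strands, and the full site of 20 bases made of 2 half-sites with no spacer. Capitals mark the full site, and the sequences run 5′ to 3′ on the strand of the gene. The Ccng1 stretch is taken around its site and ends before it reaches the start.
Cdkn1a, chr17:29090879-29090978, plus strand, the 100 bases before the upstream start: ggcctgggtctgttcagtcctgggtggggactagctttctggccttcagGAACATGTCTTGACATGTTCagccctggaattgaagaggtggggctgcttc
Ccng1, chr11:40755407-40755506, minus strand, 100 bases upstream of the start: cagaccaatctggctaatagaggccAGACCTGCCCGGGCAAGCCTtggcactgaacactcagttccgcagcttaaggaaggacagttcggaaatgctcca
Aen, chr7:78895937-78895956, plus strand, the site alone: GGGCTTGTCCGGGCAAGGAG

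The Cdkn1a and Ccng1 sites each differed from the consensus at 1 base of 20. The search required the fixed C and G of each half-site to match and counted differences at the other positions only. Under that rule a full site with at most 1 difference occurred in the windows of 22 of 27025 genes (0.0814%). Sites with a changed C or G are left out of this share and of the later share for 3 differences. The Cdkn1a site begins 51 bases before the upstream start. The downstream start of Cdkn1a lies 2790 bases further on, and its own window held no full site and no half-site. The Ccng1 site begins 195 bases before its start. The Aen site has 3 differences, a level met by 441 genes (1.63%), and lies just after the first of its starts. An exact half-site, found in 9.55% of all genes, occurred at 2 places in the upstream Cdkn1a window and at 1 place in each window of Mdm2, Ccng1 and Aen. The motif search allowed overlaps, and its limits were set after the sequences had been seen. The ETS core CGGAAG, searched on both strands, occurred once each in the windows of Mdm2 and Sesn2 and in both overlapping Aen windows, against 18.8% of all genes. It was not found in the windows of Cdkn1a, Ccng1 or Phlda3. These are matches of letters, and no binding was measured.

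The arrays were compared as deposited, as log2 signal per probe set. Spearman correlations over genes were 0.936 to 0.959 within genotypes and 0.890 to 0.925 between them. Ets1-/- replicate 1 lay lower as a whole: its median was 3.66, and the 5 other medians were 4.19 to 4.33. The median Ets1-/- minus WT difference over all genes was therefore -0.22, and it was -0.01 once arrays were centred on their medians. Ets1 itself had signals of 9.27, 9.22 and 8.79 on the Ets1-/- arrays, against 9.11, 9.32 and 9.17 in WT (limma adjusted p = 0.860). Which part of the gene the probes cover is unknown, so Ets1 cannot serve as a check of the genotypes, which are those of the labels. The coreceptors Cd4, Cd8a and Cd8b1 had signals of 10.87 to 11.78 on every array, as the label of the cells says.

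Among the 10 p53 targets, Cdkn1a stood far above WT on all Ets1-/- arrays, while the 9 others differed by at most 0.57 on the log2 scale. Cdkn1a was also the 1 member of the 10 past the threshold of the fit over all genes (limma adjusted p under 0.05), where 1.86% of all genes were called (1.29% higher, 0.568% lower in Ets1-/-). Because the genes were chosen with this contrast known, nothing is read from that count. The 3 values of one genotype lay outside those of the other for 3 of the 10 genes, against 21.9% of all genes. The median difference over the 10 genes was -0.04, against -0.22 over all genes. After centring it was 0.17, against -0.01 over all genes.

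**Figure D1:**
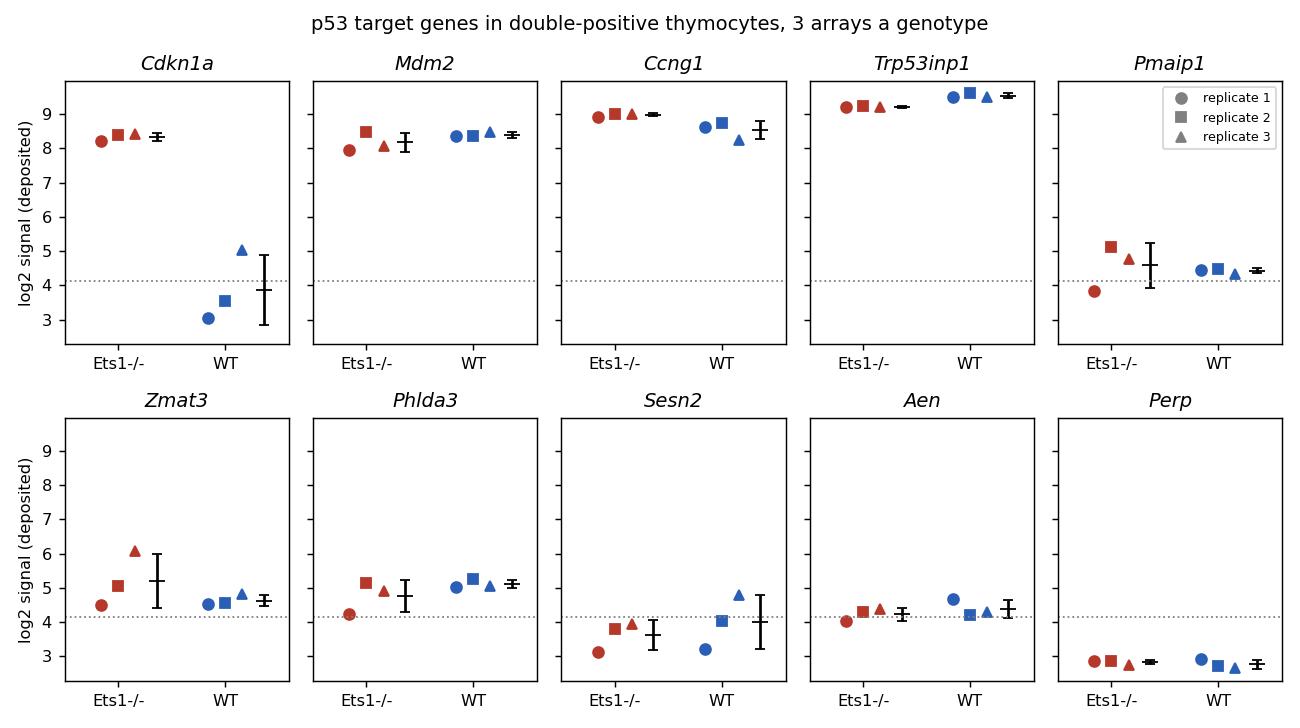
Deposited log2 signal of the 10 p53 targets on each array, Ets1-/- left (red) and WT right (blue). Symbols are replicates, the black bar is mean ± SD (n = 3), and the dotted line is the median of all probe sets (4.13). Cdkn1a lies at 8.21 to 8.42 on the Ets1-/- arrays, above the 3.05 to 5.02 of WT, while most other genes overlap.

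Cdkn1a, the inhibitor of cyclin-dependent kinases, had log2 signals of 8.21, 8.39 and 8.42 on the Ets1-/- arrays, against 3.05, 3.53 and 5.02 on the WT arrays. The Ets1-/- arrays were high and nearly alike, and the WT arrays were low and spread out, with no overlap. The mean was 8.34 ± 0.11 in Ets1-/- and 3.87 ± 1.03 in WT (SD, n = 3 each), a difference of 4.47 or 22.1-fold. In 2 of the 3 WT arrays the signal lay below the median of all probe sets on the same array. The size of the difference therefore rests on how dim signals are scaled. Adding a pseudocount of 16 to the linear signal, the difference was 3.41, or 10.6-fold. Centring the arrays gave 4.68, and leaving out 1 array at a time gave 4.06 to 5.05.

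Mdm2, the ubiquitin ligase that degrades p53 and is itself switched on by p53, did not follow Cdkn1a. It had 7.96, 8.49 and 8.08 in Ets1-/-, against 8.35, 8.35 and 8.49 in WT. The genotypes overlapped, and the difference was -0.22 as deposited and -0.01 after centring. Ccng1, which encodes cyclin G1, a partner of protein phosphatase 2A that acts back on Mdm2, had 8.93, 9.02 and 9.02 in Ets1-/-, against 8.62, 8.75 and 8.25 in WT. All Ets1-/- values lay above WT, by 0.45 on average (0.66 after centring), which is 1.36-fold. Both genes had clear signal, above the median of all probe sets on all 6 arrays. The 2 genes with a p53 site 1 base from the consensus, Cdkn1a and Ccng1, were also the 2 members whose Ets1-/- values all lay above WT as deposited. That match rests on 2 genes, on windows for 6 of the 10 and on values known beforehand. The limit on sites was also set after the sequences had been seen, and sites outside the windows were not searched. After centring Zmat3 also lay wholly above WT. A link between site and level was not tested, and none is read from the match.

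Trp53inp1, a stress protein that promotes p53 activity and autophagy, had 9.20, 9.25 and 9.21 in Ets1-/-, against 9.49, 9.62 and 9.50 in WT. Its Ets1-/- values all lay below WT as deposited, by 0.32 on average. After centring the difference was -0.11 and the genotypes overlapped, since Ets1-/- replicate 1 then had 9.70. Sesn2, a sestrin that restrains the growth kinase mTORC1, had 3.12, 3.79 and 3.95 in Ets1-/-, against 3.20, 4.04 and 4.78 in WT. These signals overlapped and lay below the median of all probe sets on 5 of 6 arrays, and WT replicate 3 was the highest, as it was for Cdkn1a among WT arrays. The difference of Sesn2 was -0.39 over all arrays, 0.00 without WT replicate 3 and -0.79 without WT replicate 1.

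The members that act in cell death gave no common picture. Pmaip1 encodes Noxa, a BH3-only protein that neutralises the survival protein MCL1. It had 3.85, 5.13 and 4.77 in Ets1-/-, against 4.45, 4.48 and 4.34 in WT. Ets1-/- replicate 1 lay below WT and the other Ets1-/- arrays above it, so the genotypes overlapped around a difference of 0.16. That difference turned to -0.11 without Ets1-/- replicate 2 and was 0.52 without Ets1-/- replicate 1. Aen, an apoptosis-enhancing nuclease, had 4.02, 4.30 and 4.37 in Ets1-/-, against 4.68, 4.20 and 4.28 in WT. The genotypes overlapped, and the difference of -0.15 turned to 0.06 after centring and 0.05 after quantile normalization. Perp, a tetraspan membrane protein of cell death and of epithelial junctions, had 2.87, 2.86 and 2.76 in Ets1-/-, against 2.92, 2.72 and 2.66 in WT. It lay below the median of all probe sets on all 6 arrays, so these values say little about its transcript.

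Zmat3, a zinc finger protein that binds RNA, was the member with the next largest difference after Cdkn1a. It had 4.49, 5.04 and 6.07 in Ets1-/-, against 4.52, 4.56 and 4.81 in WT, with means of 5.20 ± 0.80 in Ets1-/- and 4.63 ± 0.16 in WT (SD, n = 3 each). The difference of 0.57 rested largely on Ets1-/- replicate 3, without which it was 0.14. After centring all Ets1-/- values lay above WT, and the difference was 0.78. Phlda3, which blocks membrane binding of the kinase Akt, had 4.25, 5.15 and 4.91 in Ets1-/-, against 5.02, 5.25 and 5.06 in WT. The genotypes overlapped, the difference was -0.34, and without Ets1-/- replicate 1 it was -0.08.

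The rest of the p53 network was then read from lists that leave out the 10 members, in the fit over all genes. Of 100 measured genes on 6 lists, 4 rose and 4 fell. The upstream kinase Atr and the p53 targets Trp53i11 and Gtse1 fell with the checkpoint gene Bub1b, while Ephx1, Ccnd2, Klf2 and Myc rose. The shares called were 8.0% of these genes and 1.86% of all genes. The lists were chosen with earlier results of these data known, so no enrichment is read from these shares. The share of all genes also counts dim genes. In the fit on genes above the median signal, 611 of 11631 genes were called, among them 16 listed genes. That fit kept 18 regulators, 15 targets in arrest, repair and metabolism and 9 in apoptosis. It also kept 16 CDK inhibitors and partners, 19 cell cycle genes and 15 factors that act without p53. Cdkn2a is both on the list of regulators and on that of CDK inhibitors. In the fits that omit single arrays, 2 to 6 of the listed genes were called. Trp53, Bax, Gadd45a, Ddb2 and Fdxr were not named by a probe set of their own and are not analysed here.

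**Figure D2:**
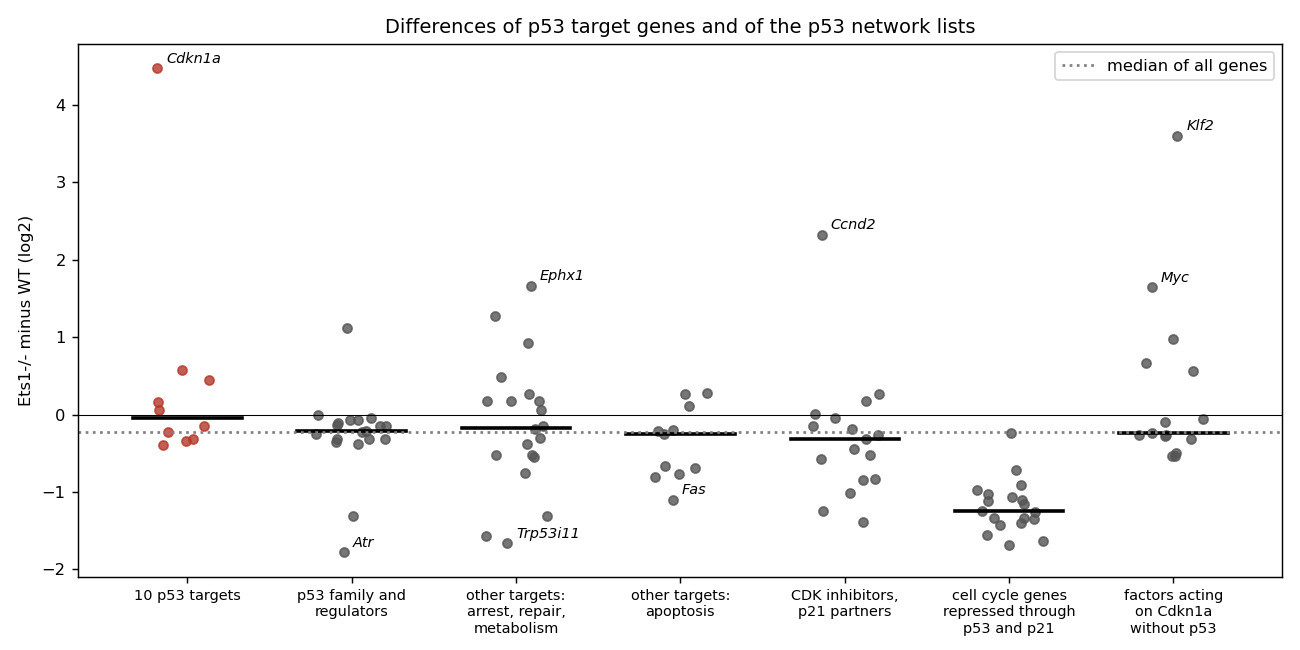
Ets1-/- minus WT difference in deposited log2 signal for the 10 p53 targets (red) and for the genes of 6 p53 network lists (grey). Each point is 1 gene, black bars are list medians, and the dotted line is the median of all genes (-0.22). Cdkn1a is at 4.47, Klf2 at 3.60 and Ccnd2 at 2.32, and the cell cycle list has a median of -1.24.

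Of 19 genes in the list of p53 relatives and regulators, 1 fell and 0 rose, and the median difference was -0.21, close to that of all genes. Atr, a kinase that signals replication stress, had 4.60, 4.88 and 4.92 in Ets1-/-, against 6.53, 6.25 and 6.97 in WT. It fell by 1.78 ± 0.26 (SE; limma adjusted p = 0.0160), and lost its call in 5 of 13 alternatives, among them the omission of WT replicate 1 or 3 or of Ets1-/- replicate 2 or 3 (adjusted p up to 0.0639). With the mean of its probe sets the difference was -1.12 (adjusted p = 0.0650). Mdm4, the relative of Mdm2 that holds p53 inactive, overlapped between genotypes, with a difference of -0.07 that turned to 0.14 after centring.

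Of 20 other p53 targets in arrest, repair and metabolism, 1 rose and 2 fell, and the median difference was -0.17. Ephx1, an epoxide hydrolase, had 6.76, 6.54 and 7.18 in Ets1-/-, against 5.06, 5.51 and 4.92 in WT, and rose by 1.66 ± 0.27 (SE; limma adjusted p = 0.0263). Trp53i11 had 6.93, 7.67 and 7.94 in Ets1-/-, against 9.16, 9.29 and 9.06 in WT, and fell by 1.66 ± 0.30 (SE; adjusted p = 0.0389). Gtse1, a microtubule protein of the later cell cycle that restrains p53, fell by 1.57 ± 0.30 (SE; adjusted p = 0.0483). No value of these 3 genes crossed between genotypes, but each call was lost in the fits that omit single arrays. Gtse1 lost it without any 1 of the 6 arrays (adjusted p up to 0.160), Ephx1 in all but the fit without WT replicate 2 (up to 0.104), and Trp53i11 without Ets1-/- replicate 2 or any WT array (up to 0.137). Btg2 and Sesn1, an antiproliferative gene and the sestrin relative of Sesn2, both had differences of 0.18, with limma adjusted p of 0.726 and 0.761.

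The p53 targets of cell death gave 0 calls among 11 genes by limma, with 4 at an unadjusted p under 0.05, and a median difference of -0.25, against -0.22 over all genes. Without Ets1-/- replicate 1 the median was 0.03, and 5 of the 11 differences were below 0. The death receptor Fas had 7.10, 7.86 and 7.37 in Ets1-/-, against 8.30, 8.53 and 8.80 in WT. Its Ets1-/- values all lay below WT, at a difference of -1.10 ± 0.28 (SE; limma adjusted p = 0.118). Fas passed the test with a pseudocount of 16 (adjusted p = 0.0294) and with an intensity trend (adjusted p = 0.000848). Pidd1, a death-domain adaptor, and Bid, a BH3-only protein, had differences of -0.77 and -0.80. Bbc3, which encodes the BH3-only protein Puma, had a difference of -0.67 (-0.16 without Ets1-/- replicate 1) and overlapped between genotypes. Triap1, Tnfrsf10b and Rps27l, named after their values were seen, had differences of 0.28, 0.26 and 0.11.

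Among 17 measured CDK inhibitors and cell cycle partners of p21, 1 rose and 0 fell, and the median difference was -0.31 (-0.09 after centring). By limma 7 had an unadjusted p under 0.05. For 8 genes every Ets1-/- value lay below every WT value as deposited, and for 1 above, against 21.9% of all genes in either direction. Cdk1 (-1.39), Cdk2 (-1.25) and Ccne1 (-1.01), named after their values were seen, were among the 8. With an intensity trend 3 genes of the list were called lower. Ccnd2, the D-type cyclin that activates CDK4 and CDK6, had 7.86, 8.0 and 7.87 in Ets1-/-, against 5.72, 5.94 and 5.10 in WT. It rose by 2.32 ± 0.27 (SE; limma adjusted p = 0.00602), and kept its call in all 13 alternatives. Cdkn1b, which encodes the related inhibitor p27, had 8.51, 8.80 and 8.85 in Ets1-/-, against 8.92, 8.93 and 8.88 in WT. All Ets1-/- values lay below WT by a small margin, and the difference of -0.19 (adjusted p = 0.721) turned to 0.02 after centring.

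Cell cycle genes known to be repressed through p53 and p21 were lower as a group. All 19 measured members had a negative difference, and for 17 of them every Ets1-/- value lay below every WT value as deposited. Over all genes, 21.9% did not overlap between genotypes, counted in either direction. The list was chosen with earlier results of these data known. The median difference was -1.24, against -0.22 over all genes, and -1.03 after centring, against -0.01. By limma 1 fell and 0 rose, with 17 at an unadjusted p under 0.05. Bub1b, a kinase of the spindle checkpoint, had 6.01, 6.69 and 6.58 in Ets1-/-, against 8.11, 7.93 and 7.91 in WT, and fell by 1.56 ± 0.26 (SE; adjusted p = 0.0258). Top2a, the topoisomerase of dividing cells, had 8.44, 8.67 and 8.53 in Ets1-/-, against 9.73, 9.42 and 9.59 in WT, a difference of -1.03 (adjusted p = 0.0674). The proliferation marker Mki67 had a difference of -1.15 (adjusted p = 0.129). How many members were called depended on the fit. It was 5 after centring, 6 among genes above the median signal, 9 after quantile normalization, 11 with a pseudocount of 16 and 13 with an intensity trend. It was 0 when any WT array or Ets1-/- replicate 2 or 3 was left out, which also ended the call of Bub1b (adjusted p up to 0.107). In whole-population RNA, fewer dividing cells and less of these transcripts per cell cannot be told apart.

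Factors known to act on Cdkn1a without p53 included 2 that rose and 0 that fell among 15 measured, with a median difference of -0.24. Klf2, a factor of T-cell quiescence and thymic exit that can induce Cdkn1a, had 8.17, 8.0 and 8.02 in Ets1-/-, against 4.35, 4.23 and 4.81 in WT. It rose by 3.60 ± 0.24 (SE; limma adjusted p = 0.000578) and kept its call in all 13 alternatives. Myc, which represses Cdkn1a together with Miz1, had 7.59, 7.76 and 8.08 in Ets1-/-, against 6.58, 6.37 and 5.58 in WT. It rose by 1.64 ± 0.32 (SE; adjusted p = 0.0499), a call that was lost without any 1 of the 6 arrays (adjusted p up to 0.148).

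The genes next to Cdkn1a on chromosome 17 were read after the values had been seen. In the RefSeq order, the 3 measured neighbours on one side are Stk38, Srsf3 and Trp53cor1, and on the other side Rab44, Cpne5 and Ppil1. Trp53cor1, known as lincRNA-p21, is a noncoding RNA induced by p53. It had 1.96, 2.70 and 2.98 in Ets1-/-, against 3.72, 2.87 and 3.04 in WT, all low signals that overlapped. Rab44, a GTPase of the Rab family, had 5.71, 7.33 and 6.08 in Ets1-/-, against 3.49, 4.14 and 3.68 in WT, and rose by 2.60 ± 0.43 (SE; limma adjusted p = 0.0260). That call was lost without any WT array or without Ets1-/- replicate 3 (adjusted p up to 0.0899). The other 4 neighbours were not called, with differences between -0.60 and 0.75.

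The genes whose pattern over the 6 arrays was most like that of Cdkn1a were Fam71b, Fcgr4, H2-M2, Kynu and Timp3. Likeness was the root mean square difference between the genes' deviations from their own means. It was ranked over 10515 genes above the median signal, after symbols that are Gm, Rik, LOC, Mir or clone names had been left out. It was 0.45 for Fam71b, 0.46 for the Fc receptor Fcgr4, 0.47 for the MHC class I gene H2-M2, 0.50 for the kynureninase gene Kynu and 0.53 for the protease inhibitor Timp3. The ranking starts from the Cdkn1a values and is a description. The limit on signal was set on the mean of the 6 arrays. Fam71b, Fcgr4 and Kynu passed it through the Ets1-/- arrays, since their WT signals all lay below the median of all probe sets (4.13). Timp3 did so too, with a WT mean of 4.09. Fcgr4, for example, had 7.03, 7.0 and 7.29 in Ets1-/-, against 2.57, 3.19 and 3.43 in WT.

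Most markers of macrophages, dendritic cells, B cells and mature T cells moved with the genotypes in the same direction as Cdkn1a. Of 15 measured macrophage and monocyte markers 11 rose and 0 fell (limma), and their summed linear signal was 3999 to 5392 on the Ets1-/- arrays, against 793 to 969 in WT. Vsig4 and Cd14 were among the 4 not called and overlapped between genotypes. Csf1r, the receptor of macrophage growth factor, had 7.45, 7.80 and 8.33 in Ets1-/-, against 4.65, 4.61 and 4.38 in WT. Of 10 dendritic-cell markers 5 rose and 0 fell, with summed signals of 2981 to 3288 in Ets1-/-, against 372 to 422 in WT. Those 5 include H2-Aa, H2-Ab1 and H2-Eb1, MHC class II genes that B cells and macrophages also express. The 5 not called all overlapped between genotypes. Of these, Xcr1 (difference -1.15), Zbtb46 (-0.38) and Batf3 (-0.25) went the other way, while Flt3 had 0.03 and Siglech 0.81. Of 11 B-cell markers 6 rose and 0 fell, with sums of 439 to 883 in Ets1-/-, against 103 to 140 in WT. Cr2 (difference -0.32) and Fcer2a (0.81) were not called and overlapped between genotypes. The list of mature single-positive T cells, which includes Klf2, had 6 of 11 that rose and 0 that fell, with sums of 1810 to 2299 in Ets1-/-, against 716 to 909 in WT. Gimap6 and Ccr7 on that list were not called and went the other way. Gimap6 had a difference of -0.39, with all Ets1-/- values below WT, and Ccr7 had -0.07 and overlapped. On the log2 scale the lowest Ets1-/- value of these lists was 1.64, for Vsig4 on replicate 1. Lower values in WT were those of the B-cell genes Ms4a1, at 0.20, -0.91 and 0.85, and Blk, at 0.82, 1.48 and 0.08. Ebf1, another B-cell gene, had 1.29 on WT replicate 3.

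The part of these cells in the level of Cdkn1a, and in those of Ephx1, Ccnd2, Klf2, Myc, Rab44 and the cell cycle list, was not tested. The double-positive list had 1 of 8 that rose, the pre-T-cell receptor gene Ptcra at 1.50 ± 0.25 (SE; limma adjusted p = 0.0282), and 0 that fell. Ptcra lost that call without Ets1-/- replicate 2 or 3 or any WT array (adjusted p up to 0.116). Summed double-positive signals were 10441 to 11323 in Ets1-/-, against 11033 to 11388 in WT.

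**Figure D3:**
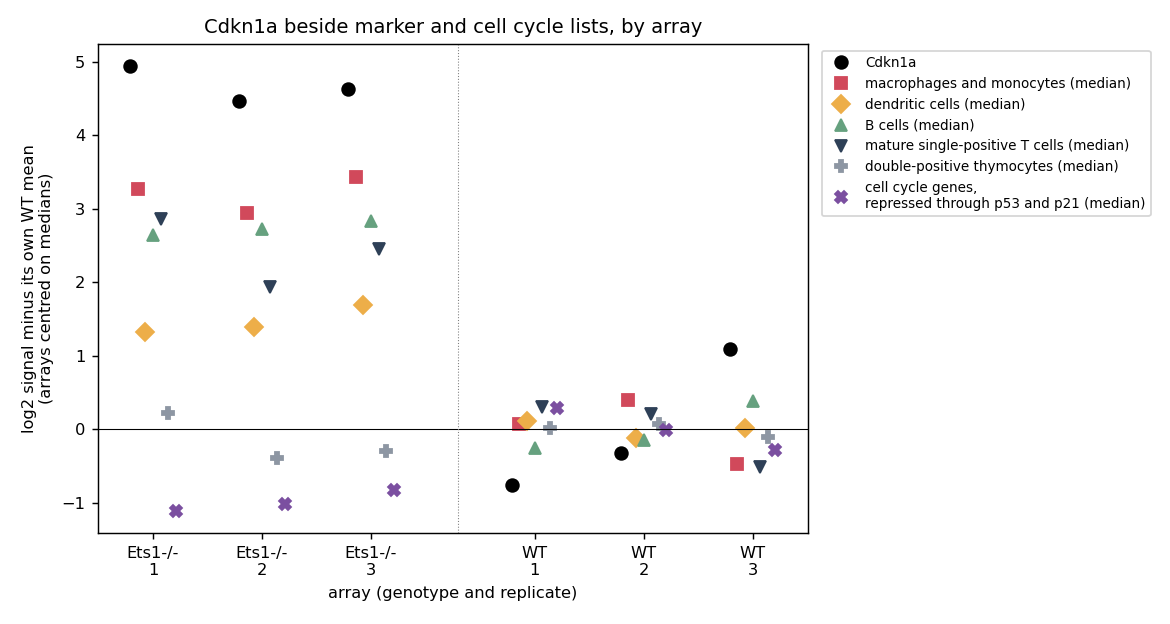
Log2 signal on each array after centring, minus the WT mean of the same row, for Cdkn1a and for the medians of 6 gene lists. Ets1-/- arrays are on the left, WT arrays on the right. Cdkn1a lies 4.47 to 4.94 above its WT mean and the macrophage median 2.94 to 3.44 above its own, while the cell cycle median lies 0.83 to 1.11 below.

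Lists of 5 other cell types had 0 calls by limma. They were thymic epithelium (11 measured, 1 at an unadjusted p under 0.05), neutrophils (10 and 1), erythroid cells (6 and 0), endothelium (10 and 4) and fibroblasts (10 and 0). Most of their differences were below 0: 10 of 11, 8 of 10, 6 of 6, 10 of 10 and 8 of 10, in the same order. The endothelial median was -0.59, against -0.22 over all genes, and -0.38 after centring, against -0.01. The epithelial list bears on Perp, which epithelia express: its summed signal was 121 to 277 in Ets1-/-, against 182 to 214 in WT, and Perp was low in both. The sum of 277 rests largely on Krt18, which had 6.70 on Ets1-/- replicate 2, against 3.67 and 4.44 on the other Ets1-/- arrays.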

How the data were processed

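The deposited table holds log2 signals of 41345 probe sets on 6 arrays, and the scale was read from the values (-15.86 to 16.36, with 1.63% below 0). The authors used affy, per the submitters' processing notes, with no version; the sources used here do not state background correction, normalization or genome build. The platform table named 1 gene for 23521 probe sets, several for 1814 and none for 16010. Of the first, 23328 matched the RefSeq gene table of GRCm38.p6 by identifier. Each of 22180 genes took its brightest probe set over 6 arrays, without a filter.

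Ets1-/- minus WT was fitted with limma 3.58.1 in R 4.3.3 (two-sided, Benjamini-Hochberg over all genes, threshold 0.05), with SE moderated, and was tested on simulated data. Python 3.11.15, pandas 2.3.3, numpy 2.4.6 and matplotlib 3.10.9 made tables and plots. Members and lists were chosen with earlier results of these data known. The text names the 10 members, list genes past the threshold or with the smallest p, a fixed set (Mdm4, Bbc3, Fas, Btg2, Sesn1, Cdkn1b, Top2a, Mki67, Myc, Klf2, Ets1) and the 5 genes most like Cdkn1a. Neighbours of Cdkn1a, motifs and other genes were added after values were seen. Alternatives were the mean of probe sets, a filter at the median, quantile normalization, median centring, an intensity trend with a robust prior, a pseudocount of 16, a replicate block and the omission of each array. The number of arrays limits the precision.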

Additional observations from a re-analysis of the deposited data

How the results depend on the processing

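In the alternatives run, Cdkn1a was the 1 member called in each, and its difference ran from 3.41 (pseudocount of 16) to 5.05 (without WT replicate 3). The median difference over the 10 genes stayed between -0.15 and 0.17, on either side of 0. The 413 calls over all genes became 798 with quantile normalization, 745 with centring, 1172 with an intensity trend and 907 with a pseudocount of 16, and 190 to 379 with 1 array left out. The share of higher genes among them, 69.5%, was 52.7% with the trend, 53.4% with the pseudocount, 56.8% above the median signal, 80.1% with the replicate block and 66.7% to 85.4% with 1 array left out. The 8 calls among p53 network genes became 16 above the median signal, 19 with quantile normalization, 15 with centring, 30 with the trend, 25 with the pseudocount, 3 with the replicate block and 2 to 6 with 1 array left out. Calls of cell type markers went from 21 to 40 around the 29 reported. For named genes, 717 of 804 values kept their side of the threshold, 71 lost the call, 16 gained it, and no called difference changed sign. The labels do not say that a number marks the same litter in both genotypes, and deviations of same-numbered arrays correlated at -0.072, -0.008 and -0.048, so the replicate block (311 calls over all genes) is only a check. Under it the calls of Bub1b (adjusted p = 0.0738), Ephx1 (0.0773), Trp53i11 (0.0700), Gtse1 (0.109), Myc (0.110) and Ptcra (0.0871) were lost. With 3 arrays a genotype and probe sets near background in WT, sizes for Cdkn1a stay uncertain at the low end.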
